A study of Mus musculus with 6 samples.

Results

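The genes described here are the subunits of the hypoxia-inducible factors (HIFs), the enzymes and the ligase subunit through which oxygen controls them, and 2 of their target genes, in leukemia stem cells (LSCs) with and without *Piezo1*. They were chosen by symbol: *Hif1a*, *Epas1*, *Arnt*, *Vhl*, *Egln1*, *Egln2*, *Egln3*, *Hif1an*, *Bhlhe40* and *Vegfa*. All 10 were among the 55367 genes of the expression table, and all 10 had values high enough to be tested. The study asked how the mechanosensitive channel PIEZO1 maintains LSCs, through an axis that runs from PIEZO1 to HIF1A and the cystine transporter. RNA-seq was performed on 3 WT and 3 Piezo1cKO libraries of LSCs sorted from bone marrow leukemia cells, and the labels give the mice as 8 to 10 weeks old. WT donors were Piezo1fl/fl mice and Piezo1cKO donors were Mx1-cre; Piezo1fl/fl mice, both injected with poly(I:C) (pIpC), which induces the interferon-responsive *Mx1* promoter that drives Cre in blood-forming and other cells. Lineage-negative bone marrow cells of both genotypes were transduced with an MLL-AF9-YFP retrovirus, which carries a leukemia fusion oncogene, and were grown as leukemia in irradiated recipients, so both groups share the oncogene, the pIpC and the transplantation. The sources used here do not say whether each library came from its own animal, so the p-values measure the spread between these samples, which may be technical.

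HIFs are pairs of an oxygen-regulated alpha subunit (HIF1A, or HIF2A encoded by *Epas1*) and the constant beta subunit ARNT. Where oxygen is plentiful, prolyl hydroxylases (PHD2, PHD1 and PHD3, encoded by *Egln1*, *Egln2* and *Egln3*) mark the alpha subunit for the VHL ubiquitin ligase, which sends it to the proteasome, while the asparaginyl hydroxylase FIH (*Hif1an*) blocks its binding to coactivators. In low oxygen the alpha subunit is stabilized and the pair binds hypoxia response elements of its targets, and bone marrow is known as a tissue low in oxygen. Most of this control acts on the protein, whereas the libraries measured mRNA.

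The core letters of a hypoxia response element are ACGTG or GCGTG, and the start regions of the alpha subunit, the 3 prolyl hydroxylases and *Vegfa* are shown because these genes encode the alpha subunit, the oxygen sensors and a classic target. Sequences are from RefSeq on GRCm38.p6, each of 300 bases, from 250 before to 50 after the start of transcription, written 5′ to 3′ on the strand of the gene, and capitals mark every ACGTG or GCGTG on either strand. They lie at chr12:73907617-73907916 (plus strand, *Hif1a*), chr8:124949205-124949504 (minus strand, *Egln1*), chr7:27166753-27167052 (minus strand, *Egln2*), chr12:54203825-54204124 (minus strand, *Egln3*) and chr17:46032328-46032627 (minus strand, *Vegfa*).
Hif1a: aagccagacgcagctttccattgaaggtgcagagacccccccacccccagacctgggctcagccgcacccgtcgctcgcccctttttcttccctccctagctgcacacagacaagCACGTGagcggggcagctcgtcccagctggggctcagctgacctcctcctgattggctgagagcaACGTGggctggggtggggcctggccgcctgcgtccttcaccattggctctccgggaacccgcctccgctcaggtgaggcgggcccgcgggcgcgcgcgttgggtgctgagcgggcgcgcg
Egln1: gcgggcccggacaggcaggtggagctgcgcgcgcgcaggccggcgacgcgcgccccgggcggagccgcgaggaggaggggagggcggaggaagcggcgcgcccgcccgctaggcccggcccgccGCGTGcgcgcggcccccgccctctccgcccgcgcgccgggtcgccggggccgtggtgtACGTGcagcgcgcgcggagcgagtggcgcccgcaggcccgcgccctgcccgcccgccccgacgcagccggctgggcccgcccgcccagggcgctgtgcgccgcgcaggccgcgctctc
Egln2: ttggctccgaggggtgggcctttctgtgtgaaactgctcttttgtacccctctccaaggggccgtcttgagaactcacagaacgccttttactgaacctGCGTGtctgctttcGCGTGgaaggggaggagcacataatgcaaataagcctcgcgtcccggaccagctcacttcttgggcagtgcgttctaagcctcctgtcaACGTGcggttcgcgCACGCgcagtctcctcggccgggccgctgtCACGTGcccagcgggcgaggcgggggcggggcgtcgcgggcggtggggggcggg
Egln3: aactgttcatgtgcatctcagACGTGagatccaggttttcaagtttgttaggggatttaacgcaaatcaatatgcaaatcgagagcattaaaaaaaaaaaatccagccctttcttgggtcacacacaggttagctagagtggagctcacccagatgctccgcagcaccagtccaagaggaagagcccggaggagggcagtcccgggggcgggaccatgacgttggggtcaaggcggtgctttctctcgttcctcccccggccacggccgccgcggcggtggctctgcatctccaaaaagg
Vegfa: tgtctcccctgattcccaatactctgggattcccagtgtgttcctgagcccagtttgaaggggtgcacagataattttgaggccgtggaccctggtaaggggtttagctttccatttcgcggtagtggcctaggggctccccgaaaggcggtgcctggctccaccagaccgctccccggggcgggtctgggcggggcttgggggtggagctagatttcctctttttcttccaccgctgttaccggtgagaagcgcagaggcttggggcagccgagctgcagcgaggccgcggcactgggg

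The *Hif1a* window held 3 matches, 2 of which overlap in the palindrome CACGTG, where 1 is read on each strand. The *Egln2* window held 6 matches, the *Egln1* window 2, the *Egln3* window 1 and the *Vegfa* window none. A second *Egln2* window, at another start, held 1 match and a second *Vegfa* window held 2. Of the other genes with a window, *Arnt* had 1 match and neither *Vhl* nor *Hif1an* had any. RefSeq windows were found for 8 of the 10 genes, all but *Epas1* and *Bhlhe40*, and 7 of their 10 windows held a match, against 43.8% of all 32851 mouse windows of this length. Letters this short recur often, so a match is a description of the sequence.

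Sequencing depth was similar in all libraries, at 14112122 to 15483611 reads on genes. The deposited values behave as regularized log2 values, in which each library is pulled towards the mean of its gene, so a difference on the deposited scale is smaller than that of the reads. Because the pull could be undone, whole reads were recovered for the genes, and both scales are given: the deposited scale with limma over 16746 genes, and recovered reads, divided by the size factor of the library, with limma-voom over 17352 genes. Read intervals cover counting error and the spread between libraries only, since the reads carry no molecular identifiers. *Piezo1* itself had 104, 92 and 113 recovered reads in the WT libraries and 35, 58 and 45 in the Piezo1cKO libraries, without overlap, although a whole-gene count does not separate deleted from retained exons and *Piezo1* shares exon bases with *Ctu2*. All 7 leukemic progenitor markers were detected, 3 of them higher and 2 lower in Piezo1cKO LSCs, and their summed level, mostly *Mpo*, was 19903 to 21113 CPM (counts scaled to the library total) in WT and 11928 to 12437 in Piezo1cKO libraries. Of 6 markers of cells the sort removes, *Cd3e*, *Cd4*, *Cd8a* and *Ly6g* had at most 3 reads in every library, whereas *Itgam* (105, 89 and 111 reads in WT and 207, 213 and 177 in Piezo1cKO libraries) and *Ly6a* (1, 1 and 0 against 10, 17 and 7) were higher. Markers of mature neutrophils were lower in Piezo1cKO LSCs for 5 of the 6 tested and higher for 1, with a summed level of 167 to 168 CPM in WT and 59.5 to 62.4 in Piezo1cKO libraries. The summed level of macrophage markers was 62.3 to 67.8 CPM in WT and 70.2 to 79.6 in Piezo1cKO libraries (4 of 6 tested higher), and that of stromal markers 5.88 to 7.80 and 30.0 to 33.3 (both tested higher, with *Lepr*, *Col1a1* and *Col3a1* at 3 reads or fewer). The summed T and NK cell markers, mostly *Nkg7*, stood at 268 to 281 CPM in WT and 168 to 171 in Piezo1cKO libraries. Of 3 tested, 2 were lower and 1 higher. *Klrb1c* had 0 reads in every WT library and 32, 38 and 52 in Piezo1cKO libraries, and *Cd3g* had at most 3 reads in every library. The part of these marker shifts in the results on the 10 genes was not tested. In bulk RNA, fewer cells that express a gene and less RNA per cell cannot be told apart.

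Of these genes, 9 changed in Piezo1cKO LSCs. The alpha subunit *Hif1a*, its partner *Arnt*, the asparaginyl hydroxylase *Hif1an* and the targets *Bhlhe40* and *Vegfa* fell, whereas *Vhl* and all 3 prolyl hydroxylase genes rose. *Epas1* was near the limit of detection in both groups. At an adjusted p under 0.05 (limma, Benjamini-Hochberg over all genes tested) this is 9 of 10, 4 higher and 5 lower, in a comparison where 63.0% of all genes tested were called, 31.6% higher and 31.4% lower. Past an absolute log2 fold change of 1 as well, the study's threshold for a differentially expressed gene (DEG), *Bhlhe40* alone remained on the deposited scale, where 0.818% of all genes passed, 0.561% as lower. The study applied that threshold to DESeq2 results from counts, so the share on the deposited scale is not comparable with its own DEG count. On recovered reads, with limma-voom, the same 9 genes were called in the same directions, against 62.9% of all genes. There *Hif1a*, *Bhlhe40* and *Vegfa* passed the DEG thresholds as lower and *Egln1* as higher, 4 of 10, against 24.9% of all genes (12.7% higher and 12.2% lower). The groups did not overlap for 8 of the 10 genes, the exceptions being *Epas1* and *Egln2*, and 66.6% of all genes tested had groups without overlap.

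**Figure D1:**
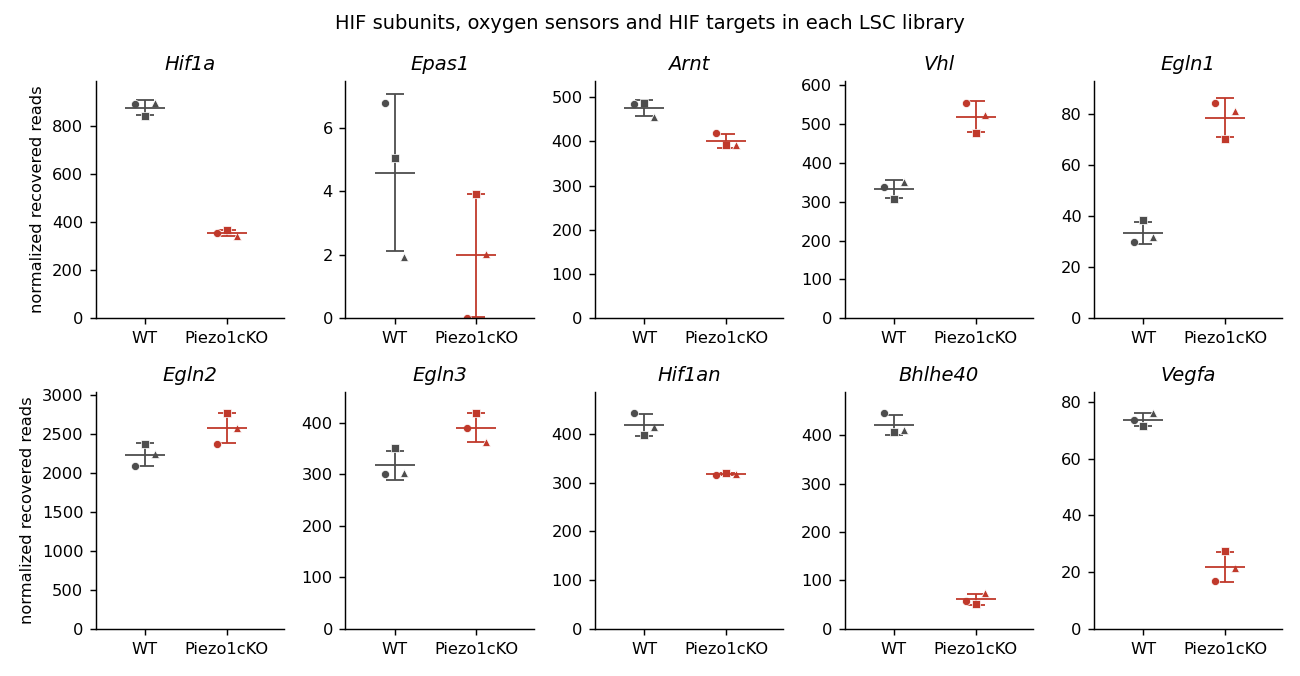
Normalized recovered reads (y axis, from 0, with its own range in each panel) of the 10 genes in WT (grey) and Piezo1cKO (red) LSC libraries. Circles, squares and triangles are replicates 1, 2 and 3, the horizontal line is the mean and the bars are the SD. WT and Piezo1cKO points separate in every panel except those of *Epas1* and *Egln2*.

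*Hif1a* (ENSMUSG00000021109, chromosome 12 of GRCm38, 73901375 to 73947530, plus strand) encodes the oxygen-regulated alpha subunit named in the study's axis. It had 919, 834 and 934 recovered reads in WT replicates 1 to 3 and 341, 376 and 338 in the Piezo1cKO replicates. Every Piezo1cKO library thus lay below every WT library, and libraries within a group were close. Normalized for library size, the mean fell from 877 ± 31.1 to 356 ± 11.3 reads (SD, n = 3), to 40.5% of the WT level. The deposited values averaged 9.55 ± 0.03 in WT and 8.76 ± 0.03 in Piezo1cKO LSCs (SD, n = 3). This gives a log2 fold change of -0.79 (standard error, SE, 0.03, adjusted p = 6.11e-13, limma), the 168th lowest of the 16746 genes. On recovered reads the log2 fold change was -1.30 (95% interval -1.43 to -1.17, adjusted p = 6.75e-11, limma-voom). An antisense gene, *Gm15283*, shares 330 exon bases with *Hif1a* and had 9 to 23 reads per library, and *Gm49321*, which shares 148 on the same strand, was not analysed here.

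The second alpha subunit was almost absent. *Epas1* (chromosome 17, 86753700 to 86833410, plus strand), which encodes HIF2A, had 7, 5 and 2 recovered reads in WT and 0, 4 and 2 in Piezo1cKO libraries. The groups overlapped, and 1 Piezo1cKO library had no read. Its deposited log2 fold change was -0.02 (adjusted p = 0.162), and on recovered reads the difference was -1.33 with a 95% interval of -2.89 to 0.23 (adjusted p = 0.126), so a change was not detectable at this depth. In TPM, a level corrected for gene length and scaled to the same total in each library, *Hif1a* stood at 32.7 ± 1.26 and *Epas1* at 0.180 ± 0.0970 in WT LSCs (SD, n = 3).

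*Arnt* (chromosome 3, 95434388 to 95497240, plus strand), the shared beta subunit, fell far less than *Hif1a*. Its recovered reads were 500, 483 and 472 in WT and 400, 401 and 384 in Piezo1cKO libraries. The groups did not overlap, but the gap was small. *Arnt* fell to 84.1% of the WT level, a deposited log2 fold change of -0.14 (SE 0.04, adjusted p = 0.00208) and a log2 fold change of reads of -0.25 (95% interval -0.39 to -0.11). As a ratio of TPM levels, *Hif1a* per *Arnt* was 2.51 ± 0.172 in WT and 1.21 ± 0.0590 in Piezo1cKO libraries, without overlap. For a single ratio, a two-sided exact permutation test with 3 libraries in each group cannot go below p = 0.1, so the ratios are given without a test.

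The prolyl hydroxylase genes rose together, each by a different amount. *Egln1* (chromosome 8, 124908587 to 124949324, minus strand), which encodes PHD2, the main oxygen sensor of most cells, had 31, 38 and 33 recovered reads in WT and 81, 72 and 80 in Piezo1cKO libraries. All 3 Piezo1cKO libraries lay well above the WT range, a 2.36-fold rise. The deposited log2 fold change was 0.26 (SE 0.04, adjusted p = 5.82e-06), and that of reads 1.23 (95% interval 0.84 to 1.62, adjusted p = 3.61e-05).

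*Egln3* (chromosome 12, 54178981 to 54203860, minus strand), which encodes PHD3 and is itself a known HIF target, had 309, 347 and 315 recovered reads in WT and 373, 429 and 356 in Piezo1cKO libraries. Its lowest Piezo1cKO library lay just above its highest WT library, at 362 against 350 normalized reads. *Egln3* rose 1.23-fold, a deposited log2 fold change of 0.16 (SE 0.04, adjusted p = 0.00278) and a log2 fold change of reads of 0.30 (95% interval 0.13 to 0.47).

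*Egln2* (chromosome 7, 27158658 to 27166802, minus strand), which encodes PHD1, had 2144, 2353 and 2334 recovered reads in WT and 2271, 2833 and 2535 in Piezo1cKO libraries. After normalization the lowest Piezo1cKO library, at 2372 reads, lay just under the highest WT library, at 2375, so the groups overlapped. The mean rose 1.15-fold, with a deposited log2 fold change of 0.14 (SE 0.04, adjusted p = 0.00313), which stayed between 0.11 and 0.18 when each library was left out in turn.

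PHD1 transcripts made up most of the prolyl hydroxylase mRNA in both groups. Summed over *Egln1*, *Egln2* and *Egln3*, the TPM level was 204 ± 13.3 in WT and 242 ± 15.0 in Piezo1cKO LSCs (SD, n = 3), without overlap. *Egln2* gave 86.1% ± 0.558 of this sum in WT and 84.5% ± 1.05 in Piezo1cKO LSCs, *Egln3* 12.9% ± 0.505 and 13.5% ± 0.895, with overlap. *Egln1* gave 0.969%, 1.08% and 0.955% of the sum in WT libraries and 2.31%, 1.68% and 2.10% in Piezo1cKO libraries. The *Egln1* share was therefore the part that moved most in proportion, while it stayed the smallest. *Hif1a* TPM per summed prolyl hydroxylase TPM was 0.161 ± 0.0157 in WT and 0.0556 ± 0.00328 in Piezo1cKO libraries.

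*Vhl* and *Hif1an*, the other negative regulators of the alpha subunit, moved in opposite directions. *Vhl* (chromosome 6, 113623959 to 113631633, plus strand), the substrate-binding subunit of the ligase, had 348, 304 and 366 recovered reads in WT and 532, 489 and 516 in Piezo1cKO libraries. The groups were well apart, and *Vhl* rose 1.56-fold, with a deposited log2 fold change of 0.36 (SE 0.04, adjusted p = 4.55e-07) and 0.64 on reads (95% interval 0.48 to 0.80). *Hif1a* TPM per *Vhl* TPM was 1.34 ± 0.0487 in WT and 0.350 ± 0.0357 in Piezo1cKO LSCs.

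*Hif1an* (chromosome 19, 44562850 to 44576274, plus strand), which encodes the asparaginyl hydroxylase, had 456, 395 and 431 recovered reads in WT and 302, 328 and 312 in Piezo1cKO libraries. The Piezo1cKO libraries lay below the WT range and varied little among themselves. *Hif1an* fell to 75.9% of the WT level, a deposited log2 fold change of -0.22 (SE 0.04, adjusted p = 4.97e-05) and -0.40 on reads (95% interval -0.54 to -0.25). Of the 4 oxygen-dependent hydroxylase genes, it was the 1 that fell.

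The targets *Bhlhe40* and *Vegfa* had the largest falls of the 10 genes in recovered reads. *Bhlhe40* (chromosome 6, 108660629 to 108666925, plus strand), a basic helix-loop-helix repressor of transcription, had 459, 404 and 426 recovered reads in WT and 56, 53 and 73 in Piezo1cKO libraries. The groups were far apart, and *Bhlhe40* fell to 14.6% of the WT level. Its deposited values averaged 8.17 ± 0.04 in WT and 6.95 ± 0.08 in Piezo1cKO LSCs (SD, n = 3), which gives a log2 fold change of -1.23 (SE 0.04, adjusted p = 2.52e-14), the 57th lowest of all genes tested, and the reads gave -2.78 (95% interval -3.08 to -2.49). The antisense gene *0610040F04Rik*, which shares 118 exon bases with it, had at most 1 read per library.

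*Vegfa* (chromosome 17, 46016993 to 46032369, minus strand), the growth factor of blood vessels and a classic HIF target, had 76, 71 and 79 recovered reads in WT and 16, 28 and 21 in Piezo1cKO libraries. Every Piezo1cKO library lay below the WT range, and the Piezo1cKO libraries spread from 16.7 to 27.3 normalized reads. *Vegfa* fell to 29.5% of the WT level, a log2 fold change of reads of -1.76 (95% interval -2.22 to -1.29, adjusted p = 5.15e-06). On the deposited scale, where a gene with few reads is pulled strongly to its mean, the log2 fold change was -0.32 (SE 0.03, adjusted p = 2.75e-07).

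**Figure D2:**
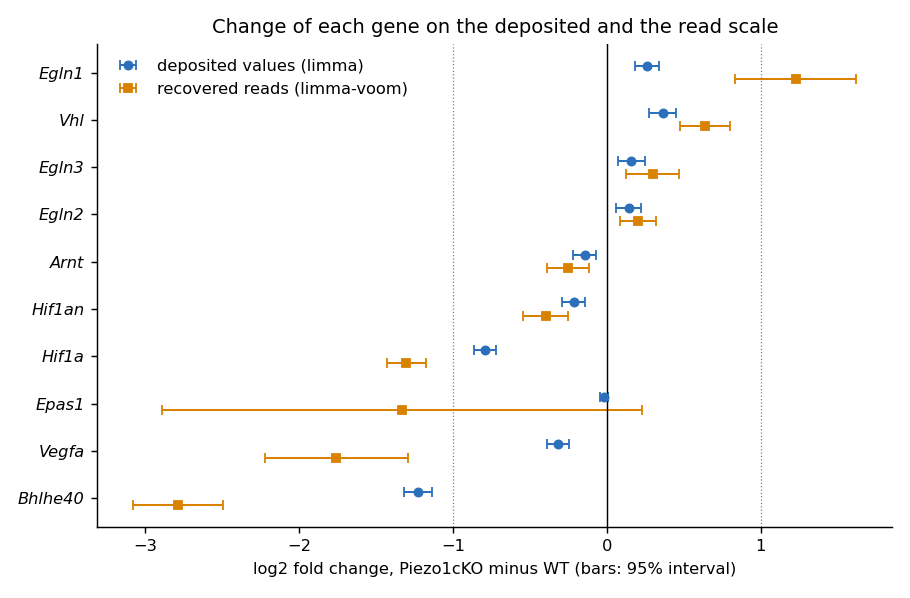
Log2 fold change, Piezo1cKO minus WT (x axis), of the 10 genes on the deposited scale (blue circles, limma) and on recovered reads (orange squares, limma-voom), with 95% intervals; dotted lines mark a change of 1 in either direction. The direction is the same on both scales for all 10 genes, and the interval of *Epas1* on reads is the widest, from -2.89 to 0.23.

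The order of the length-corrected levels changed between the groups. In WT LSCs *Egln2* was highest at 175 ± 11.1 TPM, followed by *Hif1a* at 32.7, *Egln3* at 26.2, *Vhl* at 24.4, *Bhlhe40* at 19.7, *Hif1an* at 13.9, *Arnt* at 13.1, *Vegfa* at 3.78, *Egln1* at 2.04 and *Epas1* at 0.180. Among neighbours in this order, *Egln3* and *Vhl* overlapped between libraries, as did *Hif1an* and *Arnt*. In Piezo1cKO LSCs *Egln2* stayed highest at 205 ± 14.4 TPM, and *Vhl* (38.6) and *Egln3* (32.7) came next, above *Hif1a* (13.4), *Arnt* (11.1) and *Hif1an* (10.7). *Egln1* (4.89 TPM) stood above *Bhlhe40* (2.91) and *Vegfa* (1.13), with *Epas1* (0.0786) last, and no neighbours overlapped. Thus *Hif1a* went from above *Vhl* and *Egln3* to below both, and *Egln1* from below *Bhlhe40* and *Vegfa* to above both.

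**Figure D3:**
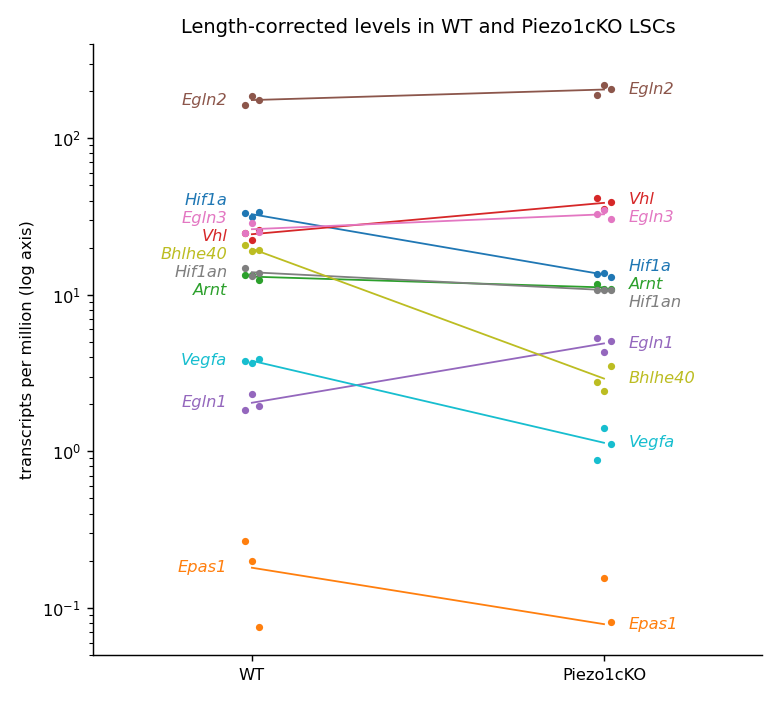
TPM (y axis, log scale) of the 10 genes in WT and Piezo1cKO LSCs. Points are the 3 libraries of a group and lines join the group means; the Piezo1cKO library in which *Epas1* had 0 reads cannot be drawn on a log axis. The *Hif1a* line falls from 32.7 to 13.4 TPM across the rising lines of *Vhl* and *Egln3*, and the *Bhlhe40* line crosses that of *Egln1*.

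By the root mean square difference of deposited values, each centred on its mean over the 6 libraries, the genes whose pattern was most like that of *Hif1a* among 10927 genes were *Gmcl1* (0.0192), *Pkn2* (0.0228), *Lta4h* (0.0232), *Cd44* (0.0267) and *Nfkbia* (0.0275), in log2 units. Their deposited log2 fold changes lay between -0.81 and -0.78, next to the -0.79 of *Hif1a*. With 6 libraries in 2 groups, this likeness rests mostly on the size of the difference between the groups.

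Other subunits of the same basic helix-loop-helix PAS family mostly had few reads. Of 12 such genes, 7 were tested, with 2 higher, 2 lower and 3 not called. Over all genes tested, 31.6% were higher and 31.4% lower. The median deposited log2 fold change of the list was 0.00, as was that of all genes tested. *Arntl*, the beta subunit of the circadian clock pair, rose from 245 ± 17.6 to 455 ± 34.4 normalized reads (SD, n = 3; deposited log2 fold change 0.48, adjusted p = 1.08e-08). *Hif3a*, *Ahr* and *Ahrr* are named here because their values had been seen. *Hif3a*, the third HIF alpha subunit, had 3, 2 and 2 reads in WT and 17, 23 and 17 in Piezo1cKO libraries, a ratio of 8.40 with a 95% counting interval of 3.83 to 21.8. *Ahr*, the dioxin receptor that also pairs with ARNT, fell to 36.6% of the WT level, and *Ahrr*, its repressor, had 11, 10 and 12 reads in WT and none in Piezo1cKO libraries, at least 3.55-fold lower when set against 3 reads per library.

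Among 10 partners of the VHL ligase, ligases that act on the prolyl hydroxylases and HIF chaperones, 4 were higher, 3 lower and 3 not called. Their median deposited log2 fold change was 0.05. The shares over all genes tested were 31.6% higher and 31.4% lower. The scaffold cullin *Cul2* fell to 80.5% of the WT level, whereas the adaptor *Elob* rose 1.12-fold (adjusted p = 0.00823), a call lost without WT replicate 1 (adjusted p = 0.0577) or Piezo1cKO replicate 2 (adjusted p = 0.0710) or 3 (adjusted p = 0.0642). *Siah1b*, a ligase of the SIAH family that targets prolyl hydroxylases, rose 1.19-fold. *Siah2* of the same family, named after its values were seen because its reads were fewer, had 43, 55 and 64 reads in WT and 21, 26 and 29 in Piezo1cKO libraries and fell to 48.4% of the WT level (adjusted p = 0.000518). The cytosolic chaperones of the HSP90 family diverged, *Hsp90aa1* rising 1.26-fold and *Hsp90ab1* falling to 78.7%. Without Piezo1cKO replicate 2 the list had 2 genes higher in place of 4.

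Of 9 coactivators of HIF and their competitors, 2 were higher, 1 lower and 6 not called (median deposited log2 fold change 0.00), where 31.6% of all genes tested were higher and 31.4% lower; the difference from all genes was not tested. *Crebbp*, the acetyltransferase CBP, rose 1.20-fold (adjusted p = 0.000134), and its homolog *Ep300* had a deposited log2 fold change of 0.08 (adjusted p = 0.0616), and was called in several alternatives, among them centred libraries (adjusted p = 0.0177) and the fit without WT replicate 3 (adjusted p = 0.0273). Of the mediator kinases, *Cdk8* rose 1.31-fold and *Cdk19* fell to 56.9% of the WT level. *Cited1*, *Cited2* and *Cited4*, which compete with HIF for CBP and p300, had deposited log2 fold changes of 0.00, -0.01 and -0.08 (adjusted p from 0.153 to 0.903), and *Cited4* was called as lower without WT replicate 1 (adjusted p = 0.0494) or Piezo1cKO replicate 3 (adjusted p = 0.0436). The acetyltransferases *Ncoa1* (-0.06, adjusted p = 0.194) and *Kat5* (0.02, adjusted p = 0.517) did not pass.

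Of 13 other dioxygenases that use oxygen, 6 were higher, 3 lower and 4 not called (median deposited log2 fold change 0.08). Among all genes tested, 31.6% were higher and 31.4% lower, and the difference was not tested. The DNA demethylases *Tet3* and *Tet2* rose 1.39-fold and 1.31-fold, and the histone demethylase *Kdm5a* rose 1.24-fold. *P4htm*, named because its values had been seen, had fewer reads, 21, 23 and 12 in WT and 49, 51 and 46 in Piezo1cKO libraries. It rose 2.68-fold (adjusted p = 3.89e-05, limma) and was the 1 gene of this list past the DEG thresholds on recovered reads. *Kdm5c* fell to 85.3% and *Kdm6b* to 90.2% of the WT level, and *Tet1* to 72.9% (adjusted p = 0.0325). The *Kdm6b* call was lost without WT replicate 1 (adjusted p = 0.0617), and that of *Tet1* without any of WT replicates 1 and 2 and Piezo1cKO replicates 2 and 3 (adjusted p from 0.0625 to 0.161). Without WT replicate 1 a single gene of this list was lower.

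HIF targets among the glycolysis genes changed in both directions. Of 19, 5 were higher, 9 lower and 5 not called, where 31.6% of all genes were higher and 31.4% lower, with a median deposited log2 fold change of -0.05, and none was a DEG on the deposited scale. The lactate exporter *Slc16a3* rose 1.58-fold, hexokinase *Hk2* 1.36-fold and phosphofructokinase *Pfkl* 1.25-fold. *Aldoc*, named because its values had been seen, had fewer reads, 23, 29 and 25 in WT and 51, 95 and 73 in Piezo1cKO libraries. It rose 2.91-fold (adjusted p = 1.7e-05, limma) and was the 1 gene of this list past the DEG thresholds on recovered reads. In contrast the platelet-type phosphofructokinase *Pfkp* fell to 55.0%, the glucose transporter *Slc2a3* to 55.4% and *Pfkfb4*, a regulator of phosphofructokinase, to 64.2% of the WT level.

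Of 37 other target genes, 27 were tested, of which 8 were higher, 11 lower and 8 not called (median deposited log2 fold change -0.05). For comparison, 31.6% of all genes tested were higher and 31.4% lower. With each library centred on its median, 7 genes of the list were lower. *Stc2*, a secreted glycoprotein, had 490, 483 and 486 recovered reads in WT and 5, 14 and 4 in Piezo1cKO libraries, 1.60% of the WT level. *Pim1*, a survival kinase, fell to 26.6% of the WT level, and *Tfrc*, the transferrin receptor, to 41.6%. In the other direction the chemokine receptor *Cxcr4* rose 1.38-fold, and the mitophagy receptors *Bnip3l* and *Bnip3* rose 1.26-fold and 1.23-fold. *Stc2* and *Pim1* were DEGs on the deposited scale.

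**Figure D4:**
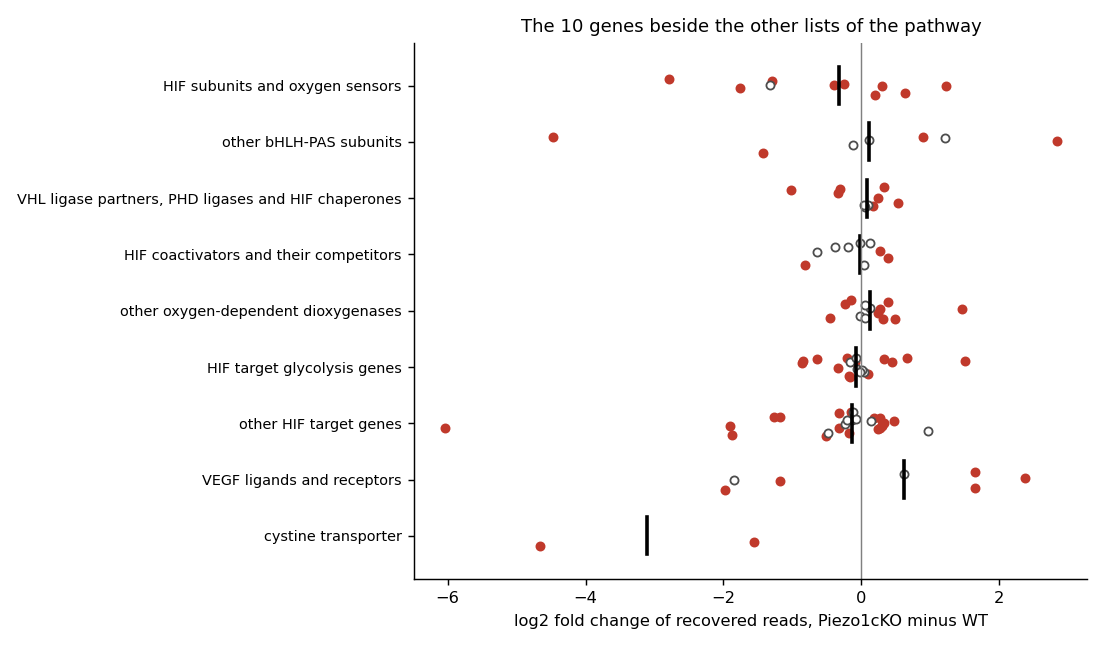
Log2 fold change of recovered reads, Piezo1cKO minus WT (x axis), for the 10 genes and for each other list of the pathway. Each point is a gene, filled red at an adjusted p under 0.05 (limma-voom) and open otherwise, with random vertical offsets, and the black bar is the median of the list. Each list holds genes on both sides of 0 except the cystine transporter.

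The partners of *Vegfa* were unevenly expressed. Of 8 other ligands and receptors of this family, 5 were tested on the deposited scale, with 2 higher, 1 lower and 2 not called. On that scale 31.6% of all genes tested were higher and 31.4% lower. The ligand *Vegfb* had 11, 18 and 22 recovered reads in WT and 41, 52 and 61 in Piezo1cKO libraries, a 3.11-fold rise (adjusted p = 2.22e-05), opposite to *Vegfa*. The coreceptor *Nrp1* rose 3.33-fold (14, 12 and 22 reads against 66, 31 and 56), and the receptor *Flt1* fell to 44.0% of the WT level. *Nrp2* (deposited log2 fold change 0.06, adjusted p = 0.0575) and *Pgf* (-0.04, adjusted p = 0.0702) did not pass, although *Pgf* was called on recovered reads (log2 fold change -1.98, adjusted p = 0.0289, 36.2% of the WT level), and on the deposited scale without WT replicate 1 (adjusted p = 0.0339) or Piezo1cKO replicate 2 (adjusted p = 0.0156). *Vegfc*, *Kdr* and *Flt4* had at most 8 reads in any library. *Vegfc* was called as higher on recovered reads (log2 fold change 2.38, adjusted p = 0.0475, limma-voom). It had 0 reads in every WT library and 7, 0 and 4 in Piezo1cKO libraries, so the groups overlapped. The endothelial markers *Cdh5*, *Tek* and *Emcn* had at most 3 reads in every library. The summed level of the 6 endothelial markers, mostly *Pecam1*, was 194 to 197 CPM in WT and 233 to 248 in Piezo1cKO libraries. *Pecam1* was higher, whereas *Tie1* was lower (15, 15 and 14 reads in WT and 4, 8 and 7 in Piezo1cKO libraries).

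Both genes of the cystine transporter, at the end of the study's axis, fell with *Hif1a*. *Slc7a11* had 865, 781 and 849 recovered reads in WT and 29, 23 and 47 in Piezo1cKO libraries, and *Slc3a2* 5625, 5584 and 5877 against 1829, 1923 and 1847. *Slc7a11* thus fell further than any of the 10 genes, and *Slc3a2*, at 33.8% of the WT level, stood between *Vegfa* and *Hif1a*. Among mouse RefSeq start windows of the same length, that of *Slc3a2* held 1 ACGTG and that of *Slc7a11* held neither ACGTG nor GCGTG. The study reported HIF1A motifs of the form GCGTR (R is A or G) in both promoters, with binding and reporter assays in human cells. GCGTA and bases outside these windows were not searched here, so the windows do not bear on those sites. In human leukemia cells the study also reported less HIF1A protein after PIEZO1 loss and lower expression of both transporter genes after HIF1A knockdown. It further reported that HIF1A overexpression reversed much of the effect of PIEZO1 loss.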

How the data were processed

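The authors trimmed reads with fastp (0.20.1), mapped them to GRCm38 with HISAT2 (2.2.1), counted them with featureCounts (2.0.1) and normalized them with DESeq2 (1.28.1), per the labels and the submitters' processing notes. The deposited log2 values behave as a regularized log, a transform not named in the sources used here. They entered the main test unchanged, for 16746 genes averaging at least 1, with limma (3.58.1, R 4.3.3; lmFit, eBayes with trend), WT against Piezo1cKO, without covariates. The transform was undone by fitting size factors and shrinkage so that values became whole, and 4 of 32 starting points reached the best fit. Of all values, 95.1% lay within 0.1 of a whole number, and 92.9% of those of genes with a mean of at least 1 read. Of the 60 values of the 10 genes, 51 did (largest distance 0.340). Rounded, these recovered reads of 17352 genes (a total of at least 10) entered limma-voom. Both fits were also run on simulated data, made with the same fitted transform. Changes were given there only to genes averaging at least 50 normalized reads, so changes of genes with fewer reads were not covered. TPM used merged exon lengths of GENCODE M21. Strand handling in counting is not given in the sources used here.

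Named genes were the 10 genes, *Piezo1*, *Slc7a11*, *Slc3a2*, the 5 genes most like *Hif1a*, every gene with values of lists of up to 9 genes and, of longer lists, up to 3 higher and 3 lower genes with the largest called changes and a mean of at least 50 normalized reads. Genes named because their values had been seen lie outside this rule. Genes and lists were chosen with earlier results of these data known. Replicate libraries differed beyond sampling noise. Alternatives were other filters, centring, no variance trend, the replicate number as a block, omission of each library, and recovered reads. Python (3.11.15) with numpy (2.4.6), scipy (1.17.1), pandas (2.3.3) and matplotlib (3.10.9) was used for the rest. The result of 1 marker list is not reported here.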

Additional observations from a re-analysis of the deposited data

How the results depend on the processing

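Of 129 values of the 10 genes under the alternatives (other filters on low values, centred libraries, no variance trend, the replicate number as a block, omission of each library, recovered reads), 128 kept their direction, and all kept their side of an adjusted p of 0.05, so that 9 genes were called throughout. The exception was *Epas1*, not called, which went from -0.02 to 0.0023 on the log2 scale with centred libraries. The scale moved the counts past both DEG thresholds, since the deposited values behave as shrunken. On recovered reads 4 of the 10 genes passed in place of 1, and 4322 genes in place of 137 among all genes. With reads scaled by library totals the counts were 4 and 4333. Of 530 values of the other genes named by the rule, 497 kept their call and direction. There were 12 that lost the call (*Elob*, *Kdm6b* and *Tet1*), 15 that gained it (*Ep300*, *Cited4*, *Pgf* and *Nrp2*) and 6 that changed direction without being called. These were *Cited1* (0.0205 with centred libraries, and from -0.0143 to 0.0100 when libraries were left out, above 0 without WT replicate 2 or Piezo1cKO replicate 3) and *Cited2* (0.0113 with centred libraries, and from -0.0472 to 0.0456 when libraries were left out, above 0 without WT replicate 3 or Piezo1cKO replicate 1). The replicate numbers are not stated to pair libraries. Deviations of same-numbered libraries correlated at 0.195, 0.161 and 0.0696, not all above 0.1, although each library correlated best with its own number. With the replicate block 11055 genes passed an adjusted p of 0.05 in place of 10556, and 137 passed both thresholds. The block called *Ep300* (adjusted p = 0.0280) and *Pgf* (adjusted p = 0.0451), so that 2 genes of the VEGF list were lower in place of 1. The count was also 2 with no filter on low values and on recovered reads. With 3 libraries a group, genes with few reads such as *Epas1* allow no narrow interval, and no outlying library can be singled out.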
